A study of Mus musculus with 8 samples.

Results

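The genes described here encode the proteasome and were picked out by a rule on their symbols. The members are the genes whose symbol in the array's probe annotation starts with Psma, Psmb, Psmc, Psmd, Psme, Psmf or Psmg, leaving out the immunoproteasome genes Psmb8, Psmb9 and Psmb10. The annotation held 48 such symbols, and 46 of them had a probe set of their own among the 18194 genes measured. The other 2, Psme2 and Psme2b, share their probe set with each other, so no value can be given to either. The name rule also caught Psmc3ip, a meiotic recombination factor, and Psme3ip1, a partner protein of Psme3, neither of which is a proteasome subunit.

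The proteasome is the large protease that degrades proteins tagged with ubiquitin. Its barrel-shaped core is built from outer rings of alpha subunits, which guard the entrance, and inner rings of beta subunits, some of which carry the cutting sites. A regulatory particle sits on the core, where a ring of ATPases unfolds the substrate and non-ATPase subunits capture it and remove its ubiquitin chain. Dedicated chaperones assist assembly, and alternative activators can replace the regulatory particle. The proteasome clears misfolded and oxidised proteins in most cells, fat cells included, and its genes are known to be transcribed more, as a set, when proteasome activity is short.

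The cells were 3T3-L1, mouse fibroblasts that turn into fat cells in culture, made insulin resistant in 3 ways once they were adipocytes. The models were chronic insulin with 2 arrays (CI), tumour necrosis factor with 3 (TNF) and dexamethasone, a synthetic glucocorticoid, with 3 (Dex). All 8 samples also received MnTBAP, a manganese porphyrin antioxidant, for the final 6 hours, and samples without it were not analysed here. There was no untreated group, so a difference between models cannot be assigned to either of its sides. Whether the arrays of a model stem from separate cultures is not given, so the p-values reflect only how far these arrays spread, possibly for technical reasons.

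Adipoq, which encodes the adipocyte hormone adiponectin, lay between 14.31 and 14.39 log2 intensity on all 8 arrays. That is near the top of the range, as the brightest probe set of each array lay between 14.45 and 14.57. Ptprc, the pan-leukocyte surface marker, had group means of 4.60, 4.66 and 4.63 in CI, TNF and Dex, below the median gene at 7.92. Of the other leukocyte markers, Adgre1, Cd68, Itgam and Cx3cr1 also had group means below it. Csf1r (8.50, 8.90 and 8.68) and Cd14 (8.06, 9.50 and 9.03) lay above it in every group. The summed intensity of the 7 measured adipocyte markers, of 8 listed, was 89826 to 89957.6 in CI, 73761.9 to 75413.7 in TNF and 83033.3 to 87455.9 in Dex, and 3 of the 7 passed as lower in TNF and 2 in Dex by the test defined below. The 5 measured preadipocyte or fibroblast markers, of 6 listed, summed to 12146 to 12234 in CI, 13676 to 16509 in TNF and 7767 to 9287 in Dex, with 1 passing as higher in TNF and 1 as lower in Dex. The 7 leukocyte markers summed to 947 to 974 in CI, 1443 to 1696 in TNF and 1244 to 1326 in Dex, and Cd14 was the 1 that passed, as higher in both. The part of these shifts in the proteasome values was not tested. These RNAs come from whole cultures, in which fewer cells of a type and less RNA per cell cannot be told apart. TNF replicate 1 and Dex replicate 3 stood apart within their groups in the values that follow.

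Proteasome transcripts were lower in TNF and in Dex than in CI, by modest amounts. The group means were lower in TNF than in CI for 41 of the 46 members and lower in Dex than in CI for 39, where 44.8% and 45.5% of all genes were lower. The median member differed from CI by -0.28 in TNF and by -0.30 in Dex on the log2 scale, against medians of 0.03 and 0.02 over all genes. Every TNF array lay below both CI arrays for 37 members (80.4%), against 24.7% of all genes. Every Dex array lay below both CI arrays for 34 members (73.9%), against 23.1% of all genes. The CI arrays are common to both comparisons, so these counts are not independent of each other.

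Fewer of these differences were large. With a Benjamini-Hochberg adjusted p under 0.05 in limma's moderated test and a log2 difference over 0.5, 8 members (17.4%) were lower in TNF than in CI, against 5.23% of all genes. In Dex 4 members (8.7%) were lower than in CI, against 5.67% of all genes, a share near the background. No member was higher than CI under this threshold in either model, where 3.00% and 3.33% of all genes were. At an unadjusted p under 0.05, 2 members were higher in TNF and 0 in Dex, against 16.8% and 15.8% of all genes. With no minimum difference, 21 members (45.7%) were lower in each model at an adjusted p under 0.05, against 13.3% of all genes in TNF and 12.4% in Dex. Below, a gene is said to have passed when it met both the adjusted p and the size threshold.

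The counts of members that passed turned on single arrays. Without TNF replicate 1 the count lower in TNF was 3 (4.81% of all genes), and without CI replicate 2 it was 4 (3.86% of all genes). Without Dex replicate 3 the count lower in Dex was 13 (6.35% of all genes), and without CI replicate 2 it was 2 (5.07% of all genes). The broader counts moved less. Without TNF replicate 1, 40 members were lower and 37 wholly below CI, against 45.3% and 28.7% of all genes, and without Dex replicate 3 these were 41 and 37, against 45.2% and 28.7%.

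Most members were brightly detected, and bright genes leaned lower in both models. Of the 3578 genes with a mean log2 intensity above 10, 38 were members. Among those 3578 genes, 59.6% were lower in TNF than in CI and 9.45% passed as lower, against 35 and 7 of the 38 members. In Dex 55.5% of them were lower and 8.64% passed as lower, against 34 and 4 of the 38 members. Every TNF array lay below both CI arrays for 43% of the 3578 genes and for 33 of the 38 members. Every Dex array did so for 37.6% of these genes and for 30 of the 38 members. The part that brightness plays in the members' differences was not tested.

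**Figure D1:**
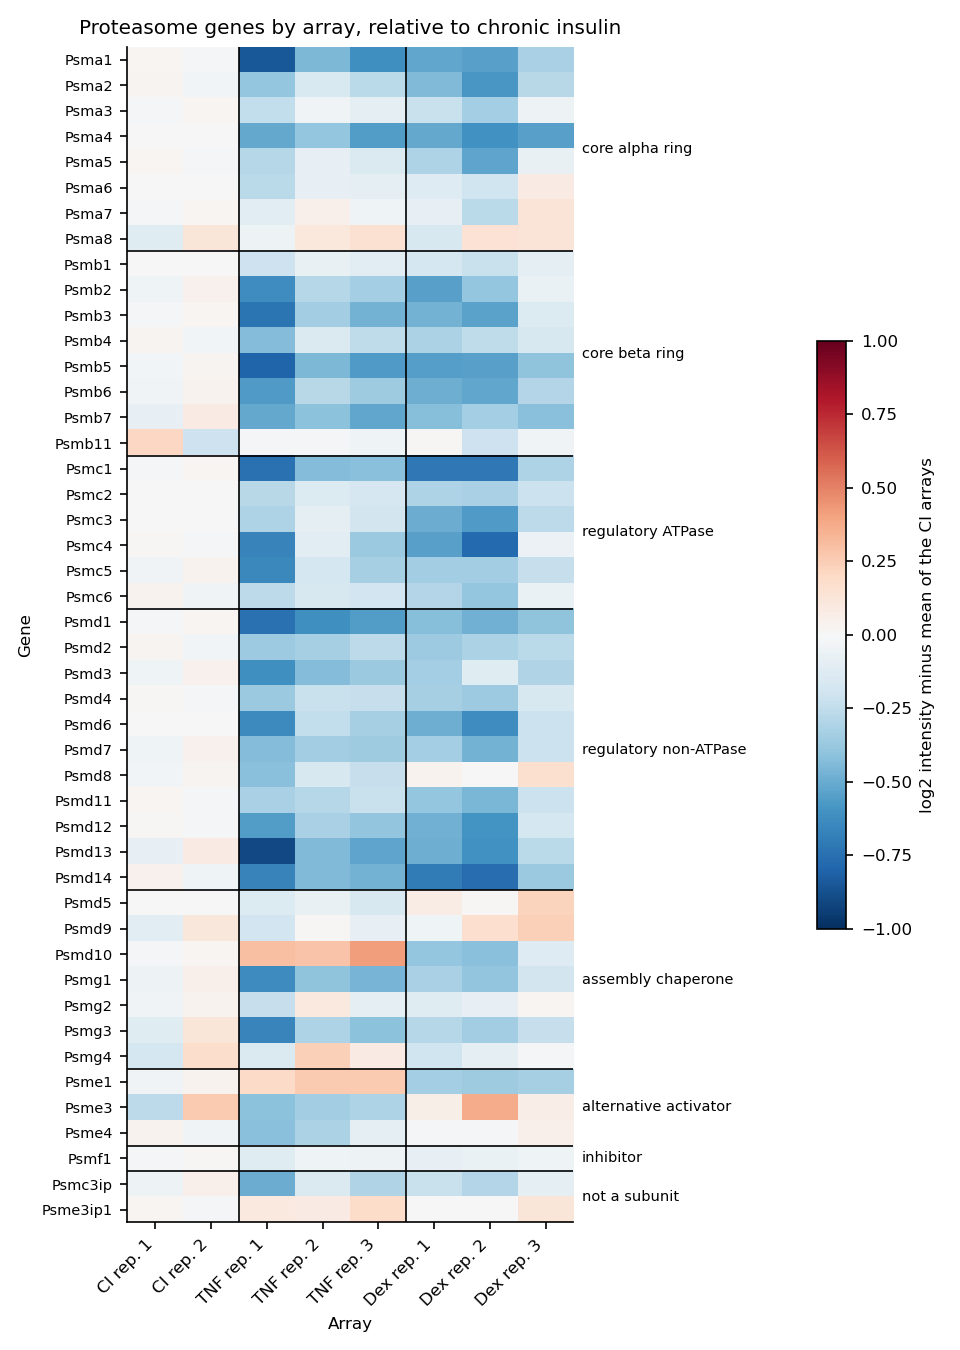
Log2 intensity of each of the 46 measured members on each of the 8 arrays, minus the mean of the CI arrays for that gene, with rows ordered by role and columns by model. Blue is lower and red higher than CI, and the core and regulatory particle rows are blue across most TNF and Dex arrays. Over all members the median was lowest on TNF replicate 1 (-0.41) and nearest to CI on Dex replicate 3 (-0.16) and TNF replicate 2 (-0.17). The order of the arrays differed between roles.

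Psmd14, Psmc1 and Psmb5 lay below CI past the threshold in TNF and also in Dex. Their upstream sequences are shown with some of the elements searched for marked in place. RefSeq promoters on build GRCm38.p6 were matched by symbol for 38 of the 46 members, giving 41 promoters that span 250 bases before to 50 after the start. The 250 bases upstream of the start are printed 5′ to 3′ on the gene's strand. Capitals mark a CCAAT box, in either orientation, or the core of an antioxidant response element, TGACNNNGC. The other motifs searched for, described below, are not marked. Psmd14 lies on the plus strand at chr2:61711444-61711693 and holds a CCAAT box on the opposite strand 159 to 155 bases upstream. The others of the 3 CCAAT matches in its promoter are not within the printed bases. Psmc1 lies on the plus strand at chr12:100109952-100110201 and holds CCAAT 175 to 171 bases upstream. Psmb5 lies on the minus strand at chr14:54617996-54618245 and holds TGACGTCGC 47 to 39 bases upstream.
Psmd14: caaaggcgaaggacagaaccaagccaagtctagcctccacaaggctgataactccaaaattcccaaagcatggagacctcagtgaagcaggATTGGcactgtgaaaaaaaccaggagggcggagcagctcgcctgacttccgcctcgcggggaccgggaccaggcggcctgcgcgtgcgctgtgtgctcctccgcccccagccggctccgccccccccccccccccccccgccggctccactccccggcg
Psmc1: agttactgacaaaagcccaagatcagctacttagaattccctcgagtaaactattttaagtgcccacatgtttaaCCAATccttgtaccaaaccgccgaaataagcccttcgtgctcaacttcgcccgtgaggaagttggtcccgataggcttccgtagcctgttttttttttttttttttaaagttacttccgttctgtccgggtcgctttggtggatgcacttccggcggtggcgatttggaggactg
Psmb5: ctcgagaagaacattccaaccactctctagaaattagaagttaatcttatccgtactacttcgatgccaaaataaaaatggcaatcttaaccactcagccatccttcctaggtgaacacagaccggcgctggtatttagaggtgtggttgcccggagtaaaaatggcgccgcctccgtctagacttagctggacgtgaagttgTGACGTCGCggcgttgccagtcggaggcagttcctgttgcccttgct

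Of the 4 motifs searched, 3 had shares in member promoters near those in other promoters of genes tested. TGACNNNGC, searched on both strands as were all motifs, stood in 6 of the 41 member promoters (14.6%), those of Psmb5, Psmb6, Psmc6, Psmd9, Psmd12 and Psme4, against 13.9% of the promoters of all genes tested and 12.4% of all promoters. CCAAT stood in 36.6% of member promoters and in 37.4% of those of all genes tested and of all promoters. The GC box GGGCGG stood in 53.7%, against 52.3% of the promoters of genes tested and 35.7% of all. The interferon-stimulated response element, searched as GAAA, any 2 bases and GAAA again, stood in 5 member promoters (12.2%), those of Psmb3, Psmd4, Psmd9, Psmg4 and Psme1, against 3.03% of the promoters of genes tested and 3.44% of all. A match is a string of letters and not a bound site, and no test was made of these shares.

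The alpha ring, which forms the gated ends of the core, showed the smallest shift of the core and regulatory groups. Its 8 measured members had a median difference from CI of -0.16 in TNF and -0.25 in Dex. In each model 1 passed as lower, against 5.23% of all genes in TNF and 5.67% in Dex. Psma1, an alpha subunit, had log2 intensities of 12.67 and 12.63 with CI, 11.80, 12.20 and 12.04 with TNF, and 12.13, 12.11 and 12.33 with Dex. Every TNF and Dex array lay below the CI arrays. Psma1 was 1.56-fold lower in TNF than in CI (log2 -0.64 ± 0.11 SE, adjusted p = 0.00201 by limma). In Dex its difference was -0.46 ± 0.11, which did not reach the size threshold. Its other 3 probe sets were dim, at mean log2 intensities of 7.42, 6.80 and 6.16, with TNF minus CI differences of -0.24, -0.03 and 0.04. The TNF call of Psma1 was lost with the median over its probe sets (-0.13) and with the probe set of largest variance (0.04).

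Psma4, the alpha subunit whose tail helps to close the gate, had values of 12.71 and 12.71 with CI, 12.19, 12.32 and 12.15 with TNF, and 12.19, 12.10 and 12.16 with Dex. The groups did not overlap with CI, and the TNF and Dex arrays were interleaved. Psma4 was 1.47-fold lower in Dex than in CI (-0.56 ± 0.08, adjusted p = 0.000337 by limma). Its TNF difference of -0.48 ± 0.08 had an adjusted p of 0.00107 and fell short of the size threshold by the smallest margin. Psma2 differed by -0.27 in TNF and -0.43 in Dex, Psma5 by -0.17 and -0.30, and Psma3 by -0.13 and -0.20. Psma6 and Psma7 had differences between -0.15 and -0.03. Psma8, the testis form, lay between 5.22 and 5.53 on the 8 arrays, below the median gene.

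The beta ring holds the proteolytic sites and shifted further, with a median difference of -0.41 in TNF and -0.36 in Dex over its 8 measured members. In TNF 2 of them passed as lower and in Dex 1 did, against 5.23% and 5.67% of all genes. Psmb5, the chymotrypsin-like site and the target of clinical proteasome inhibitors, had values of 12.33 and 12.38 with CI, 11.56, 11.90 and 11.79 with TNF, and 11.80, 11.81 and 11.95 with Dex. Every TNF and Dex array lay below both CI arrays. Psmb5 was 1.52-fold lower in TNF (-0.60 ± 0.10, adjusted p = 0.0015) and 1.41-fold lower in Dex (-0.50 ± 0.10, adjusted p = 0.00423 by limma). The Dex difference lies almost on the size threshold and fell short of it, at -0.49 to -0.47, under 5 of the alternatives.

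Psmb6, the caspase-like site, had values of 11.66 and 11.72 with CI, 11.12, 11.41 and 11.34 with TNF, and 11.20, 11.17 and 11.40 with Dex. It differed from CI by -0.40 ± 0.10 in TNF (adjusted p = 0.015) and -0.44 ± 0.10 in Dex (adjusted p = 0.00903 by limma), in neither case past the size threshold. Psmb7, the trypsin-like site, had 13.16 and 13.33 with CI, 12.73, 12.83 and 12.73 with TNF, and 12.82, 12.90 and 12.82 with Dex. Its differences were -0.48 ± 0.08 in TNF and -0.39 ± 0.08 in Dex, with adjusted p of 0.00137 and 0.00401 by limma. All the catalytic subunits of the standard core were thus below CI on every TNF and Dex array.

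Among the beta subunits without a cutting site, Psmb3 had values of 11.88 and 11.93 with CI, 11.18, 11.56 and 11.44 with TNF, and 11.43, 11.37 and 11.77 with Dex. TNF replicate 1 was its lowest array and Dex replicate 3 the highest of the TNF and Dex arrays. Psmb3 passed as lower in TNF (-0.52 ± 0.13, adjusted p = 0.015 by limma) but no longer without TNF replicate 1 (-0.41) or either CI array, or with array weights (-0.49), quantile normalization (-0.44) or the median over its probe sets (-0.50). Its Dex difference was -0.38 ± 0.13. Psmb2 differed by -0.42 in TNF and -0.33 in Dex, Psmb4 by -0.28 and -0.24, and Psmb1 by -0.13 and -0.17. Psmb11, the thymus form, lay between 5.87 and 6.29, below the median gene.

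**Figure D2:**
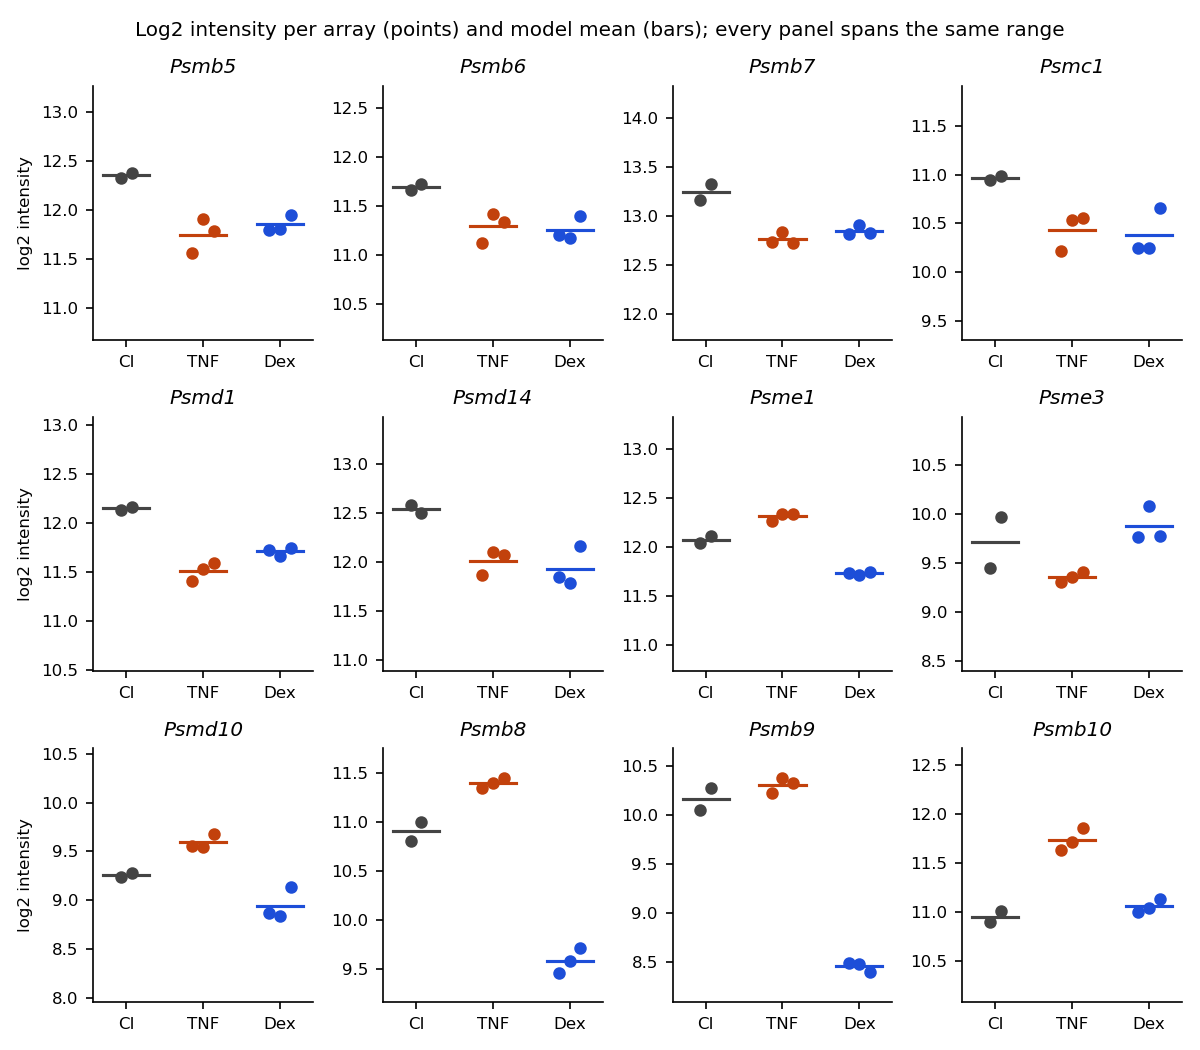
Log2 intensity of 9 proteasome members and 3 immunoproteasome genes on each array (points) with the group mean (horizontal bar) in CI, TNF and Dex; every panel spans the same log2 range, on an axis that does not start at 0. Psmb5, Psmb6, Psmb7, Psmc1, Psmd1 and Psmd14 have all TNF and Dex points below CI, Psme1 and Psmd10 have TNF above CI and Dex below it, and Psmb8 and Psmb9 are lowest in Dex by far.

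The ATPase ring of the regulatory particle had a median difference of -0.29 in TNF and -0.37 in Dex over its 6 genes. In each model 1 of the 6 passed as lower, against 5.23% of all genes in TNF and 5.67% in Dex. Psmc1, the ATPase whose tail docks into the alpha ring and helps to open the gate, was the 1 that passed, in TNF as in Dex. Its values were 10.95 and 10.99 with CI, 10.22, 10.53 and 10.55 with TNF, and 10.25, 10.25 and 10.66 with Dex. Dex replicate 3 lay well above the other Dex arrays but still below CI. Psmc1 was 1.44-fold lower in TNF (-0.53 ± 0.13, adjusted p = 0.015) and further below CI in Dex (-0.58 ± 0.13, adjusted p = 0.00888 by limma). With either CI array left out, the adjusted p rose to between 0.0522 and 0.0997 in the 2 comparisons. The call was also lost with the median over its probe sets, the other of which is dim (-0.27 in TNF and -0.30 in Dex), and in TNF without replicate 1 (-0.42), with array weights (-0.48) and with quantile normalization (-0.45).

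The other ATPases followed with smaller or more scattered differences. Psmc3 differed by -0.20 ± 0.10 in TNF and -0.44 ± 0.10 in Dex, with adjusted p of 0.181 and 0.00791 by limma. Psmc4 had values of 10.92 and 10.89 with CI, 10.24, 10.80 and 10.54 with TNF, and 10.37, 10.13 and 10.85 with Dex. Its differences were -0.38 ± 0.19 and -0.46 ± 0.19 in TNF and Dex (adjusted p = 0.181 and 0.114 by limma). Psmc4 passed as lower in Dex with array weights (-0.52) and without Dex replicate 3 (-0.66), the Dex array nearest to CI. Its second probe set gave -0.50 in TNF and -0.49 in Dex. Psmc2, Psmc5 and Psmc6 lay between -0.39 and -0.19 in both models.

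The non-ATPase subunits of the regulatory particle recognise and prepare the substrate. In TNF 10 of the 11 had an adjusted p under 0.05 and a lower level, against 13.3% of all genes. Of these 10, 3 were past the size threshold, against 5.23% of all genes. In Dex 9 of 11 had a lower level at that adjusted p, against 12.4% of all genes. There 1 was past the size threshold, against 5.67%. Their median difference was -0.41 in TNF and -0.35 in Dex. Psmd1, a scaffold subunit of the base, had values of 12.13 and 12.17 with CI, 11.40, 11.53 and 11.59 with TNF, and 11.72, 11.67 and 11.75 with Dex. The 3 groups did not overlap, with CI highest and TNF lowest. Psmd1 was 1.56-fold lower in TNF than in CI (-0.64 ± 0.08, adjusted p = 0.000206 by limma), the largest difference of any member in that comparison. In Dex its difference was -0.44 ± 0.08 (adjusted p = 0.00187 by limma), short of the size threshold.

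Psmd14, the metalloprotease that removes ubiquitin chains from the substrate, had values of 12.58 and 12.49 with CI, 11.87, 12.10 and 12.07 with TNF, and 11.84, 11.78 and 12.16 with Dex. It was 1.44-fold lower in TNF (-0.53 ± 0.12, adjusted p = 0.00739) and 1.53-fold lower in Dex (-0.61 ± 0.12, adjusted p = 0.00281 by limma). Its TNF call was lost with array weights (-0.50), with quantile normalization (-0.46), without TNF replicate 1 (-0.45) and without CI replicate 1 (adjusted p = 0.0614 by limma). The Dex difference of Psmd14 was the largest of any member in that comparison. Psmd13, a subunit of the lid, had values of 10.09 and 10.24 with CI, 9.26, 9.73 and 9.64 with TNF, and 9.68, 9.56 and 9.89 with Dex. It passed in TNF (-0.62 ± 0.14, adjusted p = 0.00739 by limma) and was at -0.45 ± 0.14 in Dex. The TNF call was lost without TNF replicate 1 (-0.48), without CI replicate 2 (adjusted p = 0.0833 by limma) and with the median over its probe sets (-0.18). A second bright probe set of Psmd13 gave -0.50 in TNF and -0.44 in Dex, while 2 others, at mean log2 intensities of 8.45 and 6.08, gave 0.14 and 0.19 in TNF.

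Psmd4, a ubiquitin receptor, had values of 12.13 and 12.11 with CI, 11.75, 11.90 and 11.89 with TNF, and 11.79, 11.76 and 11.96 with Dex. It differed by -0.28 ± 0.08 in each model, with adjusted p of 0.0368 in TNF and 0.0326 in Dex by limma, below the size threshold. Its other probe sets gave -0.20 and -0.21 at a mean log2 intensity of 11.54, and 0.29 and 0.28, the opposite sign, at 8.82. Psmd2, a scaffold subunit like Psmd1, was at -0.32 ± 0.07 in both models. Psmd3, Psmd6, Psmd7, Psmd11 and Psmd12 lay between -0.47 and -0.25. A second bright probe set of Psmd11, at a mean log2 intensity of 11.50, gave 0.02 in TNF and -0.04 in Dex. Its probe sets at 10.94 and 10.85 gave -0.37 and -0.48 in TNF, and -0.45 and -0.40 in Dex. Psmd8 was the exception among the lid subunits, at -0.27 ± 0.09 in TNF and 0.07 ± 0.09 in Dex.

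**Figure D3:**
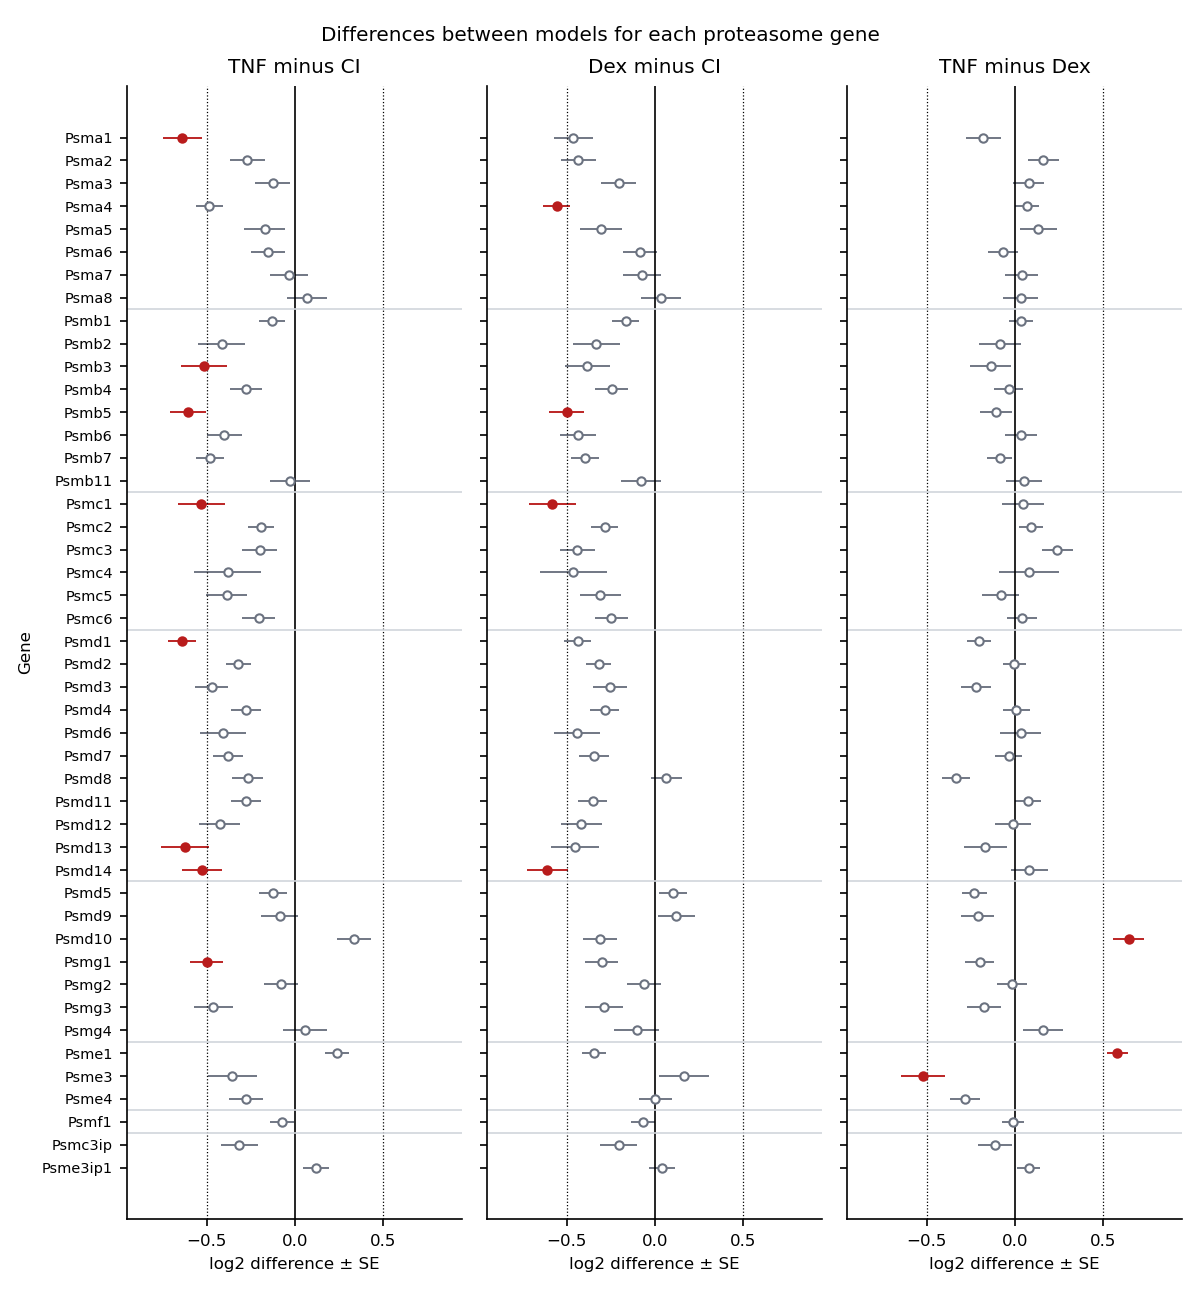
Log2 difference between models for each of the 46 measured members (points, with the standard error of the limma fit as bars), in a panel for each of the 3 comparisons, with genes ordered by role as on the array map. Filled red points passed an adjusted p under 0.05 and the size threshold of 0.5 marked by dotted lines: 8 members in the first panel, 4 in the second and 3 in the third.

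The assembly chaperones did not share a direction. Their 7 genes had a median difference of -0.09 in TNF and -0.10 in Dex. Psmg1, which helps to assemble the alpha ring, had values of 10.86 and 10.96 with CI, 10.28, 10.51 and 10.44 with TNF, and 10.59, 10.51 and 10.72 with Dex. Psmg1 was 1.41-fold lower in TNF (-0.50 ± 0.09, adjusted p = 0.00265 by limma), a difference almost on the size threshold, and was at -0.30 ± 0.09 in Dex. The TNF call was lost, at -0.48 to -0.41, without TNF replicate 1 or CI replicate 2, with array weights and with quantile normalization. Psmg3 was at -0.46 and -0.29, while Psmg2 and Psmg4 lay between -0.10 and 0.06. Psmd5 and Psmd9, chaperones of the ATPase ring, were at -0.12 and -0.09 in TNF and at 0.10 and 0.12 in Dex.

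Psmd10, also known as gankyrin, a chaperone of the ATPase ring that is known as an oncoprotein, lay on opposite sides of CI in TNF and Dex. Its values were 9.24 and 9.28 with CI, 9.56, 9.54 and 9.68 with TNF, and 8.87, 8.84 and 9.13 with Dex. The groups did not overlap, with TNF above CI and Dex below. Its difference was 0.34 ± 0.10 in TNF minus CI (adjusted p = 0.0261) and -0.31 ± 0.10 in Dex minus CI (adjusted p = 0.0384 by limma), neither past the size threshold. Between TNF and Dex it was 0.65 ± 0.09 (adjusted p = 0.000244 by limma), which passed. With beta-actin's 3′ minus 5′ difference as a covariate this became 0.48, below the size threshold.

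The alternative activators are Psme1, Psme3 and Psme4. Psme1, an interferon-inducible cap that forms a ring with Psme2, had values of 12.04 and 12.11 with CI, 12.27, 12.34 and 12.34 with TNF, and 11.73, 11.72 and 11.74 with Dex. The arrays of each group lay close together, and the groups did not overlap, with TNF highest and Dex lowest. Psme1 differed by 0.24 ± 0.07 in TNF (adjusted p = 0.0275) and by -0.34 ± 0.07 in Dex (adjusted p = 0.00411 by limma). Psme1 was 0.58 ± 0.06 higher in TNF than in Dex, which passed (adjusted p = 4.77e-05 by limma). No value can be given for its partner Psme2, for the reason given above.

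Psme3, the nuclear relative of Psme1, had values of 9.45 and 9.97 with CI, 9.30, 9.36 and 9.40 with TNF, and 9.77, 10.08 and 9.77 with Dex. Its CI arrays differed by more than those of any other member. All TNF arrays lay below all CI and Dex arrays, while CI and Dex overlapped. Psme3 was 1.43-fold lower in TNF than in Dex (-0.52 ± 0.13, adjusted p = 0.0118 by limma), a call that was lost without TNF replicate 1 (-0.49) or Dex replicate 2 (-0.42), with array weights (-0.47), with quantile normalization (-0.49), with the median over its probe sets (-0.22) and with the beta-actin covariate (-0.35, adjusted p = 0.21 by limma). A second probe set of Psme3, at a mean log2 intensity of 8.96, gave -0.53 in TNF minus CI, -0.30 in Dex minus CI and -0.22 in TNF minus Dex. The probe sets thus disagree in sign on Dex against CI, where the first gave 0.17.

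Psme4, a large single-chain activator, had values of 10.53 and 10.46 with CI, 10.08, 10.18 and 10.41 with TNF, and 10.47, 10.48 and 10.55 with Dex. It was at -0.28 ± 0.10 in TNF (adjusted p = 0.0586 by limma) and 0.00 ± 0.10 in Dex. Its 2 other bright probe sets gave -0.32 and -0.35 in TNF, and -0.03 and 0.06 in Dex. Psmf1, a protein that inhibits the core in the test tube, had values of 10.22 and 10.25 with CI, 10.12, 10.19 and 10.18 with TNF, and 10.15, 10.17 and 10.19 with Dex. Its differences were -0.07 ± 0.07 in TNF and -0.06 ± 0.07 in Dex, with 95% intervals from -0.22 to 0.08 and from -0.21 to 0.09. Of the genes that are not subunits, Psmc3ip was at -0.31 in TNF and -0.20 in Dex, and Psme3ip1 at 0.12 and 0.04.

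TNF and Dex differed little from each other over the members. The median TNF minus Dex difference was -0.0048, and for 42 of the 46 members the 95% interval lay within 0.5 on either side of 0, as it did for 83.4% of all genes. Psmd10 and Psme1 passed as higher in TNF (4.35% of members), against 4.14% of all genes, and Psme3 passed as lower (2.17% of members), against 3.16%. Both shares are near the background. The largest difference that did not pass was that of Psmd8, at -0.33 ± 0.08 (adjusted p = 0.0121 by limma), whose values were 11.50 and 11.55 with CI, 11.11, 11.37 and 11.30 with TNF, and 11.56, 11.53 and 11.69 with Dex. Every TNF array of Psmd8 lay below every Dex and CI array.

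The members moved together from array to array. In TNF the median member was 0.41, 0.17 and 0.26 below the CI mean on replicates 1, 2 and 3, and in Dex it was 0.33, 0.35 and 0.16 below. TNF replicate 1 was the lowest TNF array for 40 of the 46 members, against 37.9% of all genes. Dex replicate 3 was the highest Dex array for 40 of the 46, against 37.4% of all genes. The non-ATPase subunits had array medians from -0.56 to -0.33 in TNF and from -0.48 to -0.22 in Dex, below the alpha ring on each of these arrays. The median of all genes lay between 0.01 and 0.03 on every TNF and Dex array.

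Of the 2 measures of RNA quality on the array, 1 set Dex replicate 3 apart from the other Dex arrays. The 3′ minus 5′ difference of the beta-actin probe sets, which grows as RNA or cRNA is shortened, was 0.745 on Dex replicate 3 and 0.491 and 0.494 on the other Dex arrays. It was 0.742, 0.71 and 0.828 on TNF replicates 1, 2 and 3, where the array highest for most members, replicate 2, had the lowest value, and 0.661 and 0.536 in CI. The same difference of the Gapdh probe sets was 0.0755 on Dex replicate 3, between 0.106 and 0.0688 on the other Dex arrays, 0.0794, 0.12 and 0.138 in TNF, and 0.163 and 0.143 in CI. With the beta-actin difference as a covariate, 11 members passed as lower in TNF and 3 in Dex, against 5.79% and 5.64% of all genes. The member medians were then -0.37 and -0.29. The part of the beta-actin difference in the spread between arrays was otherwise not tested.

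**Figure D4:**
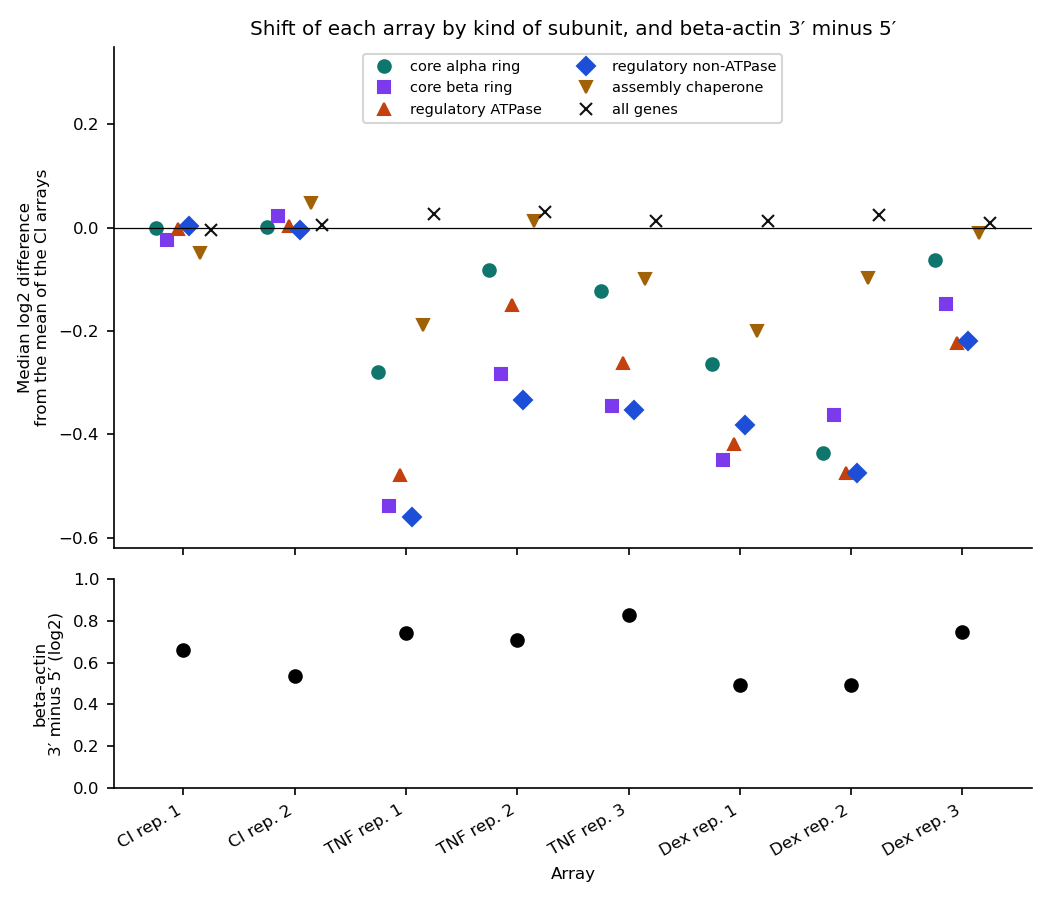
Upper panel, for each array, the median log2 difference from the mean of the CI arrays over the genes of each role (coloured symbols) and over all genes (crosses); lower panel, the beta-actin 3′ minus 5′ log2 difference of the same array. The median of all genes stays near 0 on every array, while the core and regulatory particle groups lie nearest to CI on replicate 2 of TNF and replicate 3 of Dex, and the beta-actin measure is 0.745 on Dex replicate 3 against 0.491 and 0.494 on the other Dex arrays.

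Other probe sets gave a second reading of many members. The 46 members had 99 probe sets with their symbol alone, 53 of which were not the brightest for their gene. Of these 53, 24 lay above the median gene, and 19 of the 24 were lower in TNF than in CI and 20 lower in Dex, with median differences of -0.20 and -0.28. Of the 29 at or below the median gene, 12 were lower in TNF and 8 lower in Dex, so most of these dim ones were higher than CI. Among all genes, read from their brightest probe sets, 44.8% were lower in TNF and 45.5% in Dex. Probe sets of a gene share the same RNA samples and are not replicates.

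**Figure D5:**
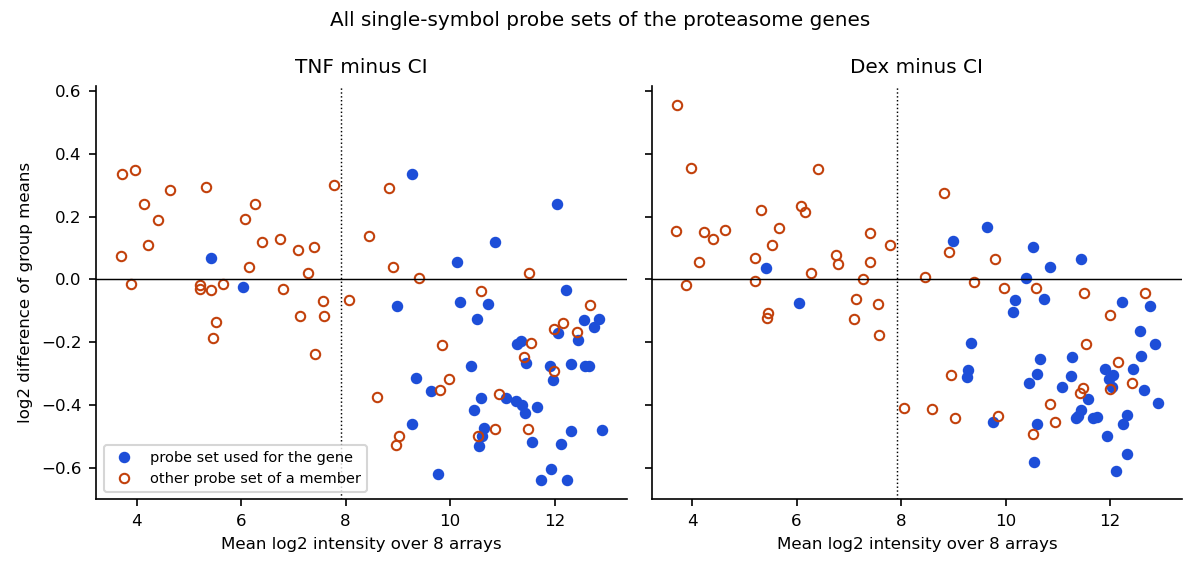
Log2 difference from CI against mean log2 intensity over the 8 arrays for all 99 probe sets of the members, in panels for TNF and Dex, with filled blue points for the probe set that represents each gene and open orange points for the 53 others. The dotted line marks the median gene at 7.92. Right of it most points of both kinds lie below 0, and left of it more points lie above 0 than below.

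The immunoproteasome genes encode subunits that can replace the catalytic ones, and their differences from the standard genes were not tested. Psmb8, which takes the place of Psmb5, had means of 10.90 ± 0.14 (SD, n = 2) with CI, 11.40 ± 0.05 (n = 3) with TNF and 9.58 ± 0.12 (n = 3) with Dex. In Dex minus CI, Psmb8 was at -1.32 ± 0.09 and Psmb9, the replacement of Psmb6, at -1.71 ± 0.09 (adjusted p = 2.02e-06 and 1.85e-07 by limma), both past the threshold, while Psmb10, that of Psmb7, was at 0.11 ± 0.09. In TNF minus CI they were at 0.50, 0.14 and 0.78, of which Psmb10 alone passed (adjusted p = 9.68e-05 by limma).

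Other proteasome components outside the name rule formed a list of 14 symbols, older names included, of which 10 were measured. Their median differences from CI were -0.11 in TNF and -0.08 in Dex. In TNF 1 of them passed as lower and in Dex 0, against 5.23% and 5.67% of all genes. The 1 was Uchl5, a deubiquitinase of the regulatory particle, with values of 10.02 and 10.09 with CI, 9.37, 9.34 and 9.44 with TNF, and 9.78, 9.69 and 9.92 with Dex. Uchl5 was 1.59-fold lower in TNF than in CI (-0.67 ± 0.08, adjusted p = 0.000229 by limma), and the groups did not overlap. Pomp, the chaperone that completes the core, was at -0.39 ± 0.09 in TNF and -0.32 ± 0.09 in Dex (adjusted p = 0.00957 and 0.0276 by limma), short of the size threshold like most members. Pithd1, which is known to bind the proteasome, was lower in TNF than in Dex (-0.51 ± 0.07, adjusted p = 0.000318 by limma).

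Of 12 genes that control proteasome transcription, 11 were measured. Nfe2l1, the factor that raises proteasome genes when activity is short, had means of 10.59 in CI, 10.61 in TNF and 10.60 in Dex, with a 95% interval of the TNF difference from -0.18 to 0.21. Nfe2l2, the factor of the oxidant response, was at -0.32 ± 0.10 in TNF and -0.40 ± 0.10 in Dex (adjusted p = 0.0319 and 0.0114 by limma). In TNF 2 of the 11 passed as lower, against 5.23% of all genes. They were Syvn1, a ubiquitin ligase of the endoplasmic reticulum, at -0.55, and Mafg, a small partner of the Nfe2l factors, at -0.61. In Dex Maff, another such partner, passed as higher at 0.66, where 3.33% of all genes passed as higher.

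For the steps before the proteasome, 48 conjugating enzymes, shuttle factors and deubiquitinases were measured, of which 12.5% passed in TNF and 6.25% in Dex in either direction, against 8.22% and 9% of all genes. Of 21 measured ubiquitin-conjugating enzymes, 3 passed as lower in TNF (Ube2c at -0.82, Ube2a at -0.68, Ube2s at -0.60) and 2 in Dex (Ube2c at -1.24, Ube2l6 at -0.93). Between TNF and Dex, Ube2l6 was higher in TNF (0.87) and Ube2g2 lower (-0.67). Of 13 measured shuttle factors and unfolding cofactors, Ubqln2 passed as higher (0.59) and Faf1 as lower (-0.58) in TNF, and 0 passed in Dex. Vcp, the ATPase that extracts ubiquitinated proteins, was at -0.37 ± 0.07 in TNF and -0.30 ± 0.07 in Dex (adjusted p = 0.00345 and 0.00971 by limma). Of 14 measured deubiquitinases 1 passed in each comparison: Usp18, the protease of the interferon-induced modifier, was 4.31-fold lower in TNF and 13.9-fold lower in Dex than in CI. Its values were 12.37 and 12.35 with CI, 11.07, 9.71 and 9.99 with TNF, and 8.81, 8.54 and 8.34 with Dex. TNF replicate 1 stood well above the other TNF arrays. The log2 differences of Usp18 were -2.11 ± 0.30 in TNF minus CI, -3.80 ± 0.30 in Dex minus CI and 1.69 ± 0.27 in TNF minus Dex. Of 6 listed ubiquitin genes and activating enzymes 1 was measured, Uba6, which did not pass. Of 10 measured heat shock genes, Hsph1 passed as lower in TNF (-0.74) and Hspb1 as higher in Dex (1.16), and both Hspb1 (-1.13) and Bag3 (-0.56) were lower in TNF than in Dex.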

How the data were processed

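Total RNA of 8 samples was hybridised by the authors as biotin-labelled cRNA to Affymetrix Mouse Genome arrays with 45101 probe sets. The deposited table gives an intensity per probe set, not in log form, with values from 6.14 to 24273.6. RMA is the preprocessing that the study states for this array type, but whether the deposited intensities are those values with the logarithm removed is not stated, and the software version is not given in the sources used here. Precision is limited by the number of arrays, which have no read depth.

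The log2 of each intensity was taken with no pseudocount and no filter. GEO's platform annotation gave 34958 probe sets 1 symbol, 932 more than 1, and 9211 no symbol. The single-symbol probe set with the highest mean stood for its gene, giving 18194 genes. The gene IDs of all 46 members were found in the RefSeq gene table. Levels of different probe sets were not compared. Groups came from the sample titles. The 3 groups were fitted together with lmFit and eBayes of limma (version 3.58.1, R 4.3.3; 5 residual and 6.15 prior degrees of freedom), and the moderated p-values, two-sided, were adjusted by Benjamini-Hochberg over the 18194 genes. Following the study, a gene had to have both an adjusted p under 0.05 and a log2 difference beyond 0.5 in size. The script was tested on simulated data. Promoters were searched in Python 3.11.15.

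Members named individually were those that passed in any comparison, the catalytic subunits, Psmd4, Psmd14, the activators, Psmf1, and the largest difference that did not pass in each comparison, and further members are given by value only. From other lists, up to 6 genes that passed in a comparison were named, with Nfe2l1, Nfe2l2, Pomp and the immunoproteasome genes whatever their values. Vcp and Uba6 were named after their values were seen. The members, the gene lists, the tests and the alternatives were chosen with earlier results of these data known. The alternatives covered scaling, the probe set of a gene, a filter on low genes, the fit, the threshold, a replicate block, a beta-actin covariate and leaving out each array.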

Additional observations from a re-analysis of the deposited data

How the results depend on the processing

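Over the alternatives, the median member stayed below CI in TNF and in Dex, and the median between TNF and Dex stayed near 0 but changed sign. Leaving out each array in turn gave medians from -0.32 to -0.22 in TNF minus CI, from -0.35 to -0.26 in Dex minus CI and from -0.05 to 0.06 in TNF minus Dex. Without each TNF or Dex array in turn, 3 to 11 members passed as lower in TNF minus CI, against 4.81% to 5.45% of all genes. In Dex minus CI 3 to 13 did, against 5.18% to 6.35%, and in TNF minus Dex 0 to 1, against 3.19% to 3.38%. In these fits 0 members passed as higher than CI, against 2.66% to 3.37% of all genes in TNF and 3.29% to 3.52% in Dex. Where a CI array is left out, the lone CI array is assumed to vary like the other groups. With no minimum difference, 21 members were lower in TNF and 21 lower in Dex than in CI, against 13.3% and 12.4% of all genes. Then 2 were higher in TNF than in CI, against 9.72% of all genes, and 4 were lower in TNF than in Dex, against 10.8%. The count lower in TNF was 5 with array weights, 5 with the median over the probe sets of a gene and 4 with quantile normalization. The shares of all genes lower in TNF were 5.05%, 4.62% and 3.98% in these fits. The count lower in TNF than in Dex was 0 in each of those fits, against 3.2%, 3.02% and 2.8% of all genes. It was 0 with the beta-actin covariate, against 3.4% of all genes. Under that covariate 1 member was higher in TNF than in Dex, against 3.63% of all genes. With the largest-variance probe set, 1 member passed as higher in Dex than in CI, against 4.35% of all genes. In that fit Psma1 in TNF minus CI turned from -0.64 to 0.040, read from a dim probe set. Quantile normalization changed the split of all genes that passed in TNF minus CI from 545 higher and 951 lower to 634 and 724, and left 38 members below CI in TNF and 39 in Dex. Of 1083 values of the named members under the alternatives, 971 kept their sign and their side of the threshold, and 32 changed sign only where the 95% interval included 0 in both fits. With the largest-variance probe set Psma1 in Dex minus CI turned from -0.46 to 0.22, Psmd4 from -0.28 to 0.28 in Dex and 0.29 in TNF, Psme4 in TNF from -0.28 to 0.35, and Psmf1 in TNF minus Dex from -0.0082 to 0.22. With the median over probe sets, Dex minus CI turned to 0.053 for Psma1 and from 0.17 to -0.30 for Psme3. The cause of the other moves was not tested.

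The labels give the groups shared replicate numbers, but same-numbered arrays did not deviate together in every pair (correlations of deviations from -0.095 to 0.334), so the numbers were not taken to pair the samples. With the replicate block in the fit, 7 members passed as lower in Dex and 9 in TNF, where 6.19% and 5.6% of all genes did. Without the block 4 and 8 members passed, where 5.67% and 5.23% of all genes did.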
